A study of Mus musculus with 12 samples.

Results

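MSU-42011 is an agonist of the retinoid X receptor (RXR), and the 4 mammary tumors of female mice fed MSU-42011 were compared here with the 4 mammary tumors of mice fed the control diet, out of 12 tumors in the study. The tumors arose in MMTV-Neu mice, which carry the Neu oncogene (the rat form of Erbb2) under the promoter of the mouse mammary tumor virus, so that every mouse of both groups carried the transgene. Mice were randomized when a tumor reached 4 mm in diameter and were fed control powdered chow or the same chow with MSU-42011 at 100 mg/kg diet for 10 days. Frozen sections of whole tumors were homogenized, poly(A) RNA was enriched from 1 ug of total RNA, and the reads on 54532 genes were counted. The remaining 4 tumors came from mice fed bexarotene, a second RXR agonist at the same dose, and are used only for a few values. Age and the date of collection or sequencing were not given in the sources used here, and the tumors were bulk tissue, so that fewer cells of a type and less RNA per cell cannot be told apart. Each side held 4 tumors, described as 4 mice per group, and p-values measure the spread between these tumors. Of the genes listed, 14779 passed edgeR's filter on low counts in the 8 tumors and were tested.

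RXR is a nuclear receptor that binds DNA as a partner of other nuclear receptors, among them the retinoic acid receptors (RAR), the liver X receptors (LXR), the peroxisome proliferator-activated receptors (PPAR), the vitamin D receptor and the thyroid hormone receptors. Each pair reads repeats of the motif AGGTCA, and a ligand bound to RXR can switch on the target genes of the pairs that permit it, such as LXR and PPAR pairs, which act on cholesterol and fatty acid genes. In mammary tumors RXR agonists have been studied for effects on proliferation of the tumor cells and on macrophages, which also depend on LXR and PPAR.

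Reads on genes ran from 16583413 to 24223315 in a tumor, with a median of 18233192. A floor of 3 reads was 0.124 to 0.181 CPM, the count scaled to the library total. Values below are CPM normalized by edgeR's TMM factors, and fold changes are MSU-42011 over control on the log2 scale of the edgeR fit, with the standard error (SE). Tumors of a group varied by a biological coefficient of variation of 0.267, and the log2 values of pairs of tumors correlated at 0.940 to 0.984. Principal component 1 held 32.4% of the variance and set MSU-42011 2 and MSU-42011 3 at its opposite ends, at 51.6 and -48.0, with the other MSU-42011 tumors between them. Control 2 stood apart on principal component 2, which held 19.6% of the variance, at 54.9 against -19.8 to 9.83 for the other 7 tumors. The epithelial markers Epcam, Krt8 and Krt18 were abundant in all 8 tumors, with at least 14441 reads each. The skeletal muscle markers were high in control 1 alone, where the 20 genes of that list summed to 226 normalized CPM against 14.6 to 22.2 in the other tumors, so muscle genes are not read as a difference between the groups.

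No gene passed an adjusted p of 0.05 in edgeR's quasi-likelihood test with Benjamini-Hochberg adjustment (0%, smallest adjusted p 0.9998). At an unadjusted p under 0.05 there were 393 genes, or 2.66%. That share is below the 0.05 that groups without a difference would give on average. DESeq2, which the study used, called 1 gene in the same 8 tumors (0.00358% of its genes), Prdm16. The gene list that the study reports compared control, MSU-42011 and bexarotene tumors and was far longer. It rests on other samples and is not set against this count. Of these 393 genes, 220 were higher with MSU-42011 (1.49% of the genes tested) and 173 were lower (1.17%), which is 56.0% higher. With values scaled by total counts alone, in place of TMM, 405 were higher and 86 lower, which is 82.5% higher, and the median log2 fold change of all genes moved from -0.00063 to 0.064. In limma fits on the deposited FPKM values 78.2% to 80.1% were higher.

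Agreement among the tumors was counted next. In 168 genes (1.14%) all 4 MSU-42011 tumors lay above all 4 control tumors, and in 120 genes (0.812%) all 4 lay below. With total counts alone, or FPKM, these counts were 298 and 35. Of the 70 ways to split 8 tumors 4 against 4, a share of 0.0286 separates the groups fully in 1 direction or the other. Groups that did not differ would give that share on average, and the observed share of genes without overlap lay below it with either scaling. The edgeR test was then repeated 8 times, each time without 1 tumor. Only 49.1% of the genes tested kept the sign of their fold change in all 8 fits. An unadjusted p under 0.05 with the same sign in all 8 fits was kept by 54 genes higher with MSU-42011 (0.365%) and 34 genes lower (0.230%), and these 88 genes are called stable below. Of them 76 were protein-coding, and 44 higher and 22 lower genes also had no overlap between the groups. The absolute log2 fold change of the stable genes ran from 0.27 to 2.95 with a median of 0.55, and 16 higher and 10 lower stable genes differed by more than 2-fold. These genes were ranked and chosen by the same p-values, so their counts describe agreement and are no further test.

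**Figure D1:**
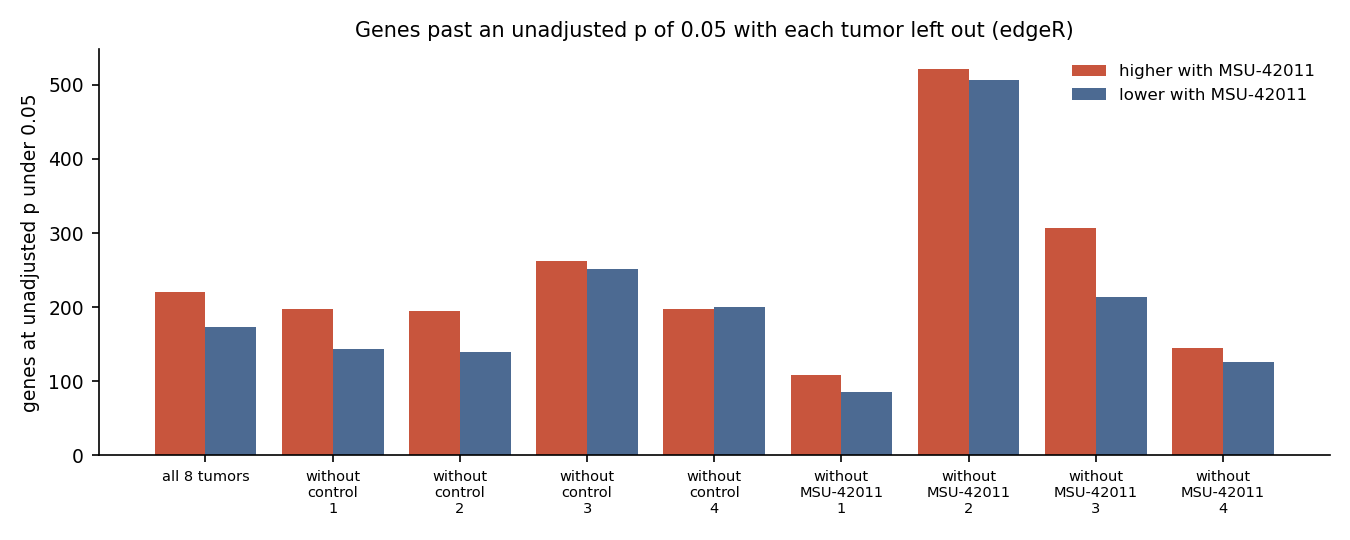
Number of genes at an unadjusted p under 0.05 (vertical axis) in edgeR fits of all 8 tumors and without each tumor (horizontal axis), with genes higher with MSU-42011 in red and lower in blue. Without MSU-42011 2 there were 522 higher and 506 lower genes, and without MSU-42011 1 there were 108 and 86.

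How many genes passed an unadjusted p of 0.05 depended on single tumors. Without MSU-42011 2 the number was 1028, with a smallest adjusted p of 0.674 in edgeR with Benjamini-Hochberg adjustment, and without MSU-42011 1 it was 194. Leaving out any other tumor gave between 271 and 521 genes, the lowest of these without MSU-42011 4, where 145 were higher. None of the 8 fits had a gene at an adjusted p under 0.05 by edgeR with Benjamini-Hochberg adjustment, and the smallest value was 0.349, without MSU-42011 4.

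Prdm16 (chromosome 4, 154316125 to 154636873, minus strand of GRCm38) ranked first of all genes. It encodes a zinc finger protein that works with other transcription regulators and is best known for setting the brown fat program. Its normalized CPM were 3.33, 8.64, 4.46 and 4.70 in control tumors 1 to 4 and 0.329, 0.483, 0.377 and 1.46 in MSU-42011 tumors 1 to 4, from 56 to 183 reads in control tumors and 6 to 35 in MSU-42011 tumors. The highest MSU-42011 tumor, number 4, was below the lowest control tumor, number 1. The log2 fold change was -2.95 (SE 0.53), 7.71-fold lower, and ran from -2.60 to -3.72 as each tumor was left out. DESeq2 gave it an adjusted p of 9.18e-05 by the Benjamini-Hochberg method, and its next smallest adjusted p over all genes was 0.425. The adjusted p of edgeR's quasi-likelihood test with Benjamini-Hochberg adjustment was 0.9998, and the exact two-sided permutation test gave 0.0286, which is the smallest p that 4 against 4 tumors can give. In the 4 bexarotene tumors, on a scale set over all 12 tumors, Prdm16 was at 6.20, 8.92, 7.12 and 3.19 normalized CPM. Brown fat markers were low in all 8 tumors, with Ucp1 at 0 counts in 4 tumors and at most 5 counts in the others, and Cidea at 9 to 41 counts.

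RXR pairs bind the motif AGGTCA, so the promoter of Prdm16, which does not hold it, and those of 3 lower genes that do are shown. Each runs from 250 bases upstream to the start of the gene as RefSeq gives it on GRCm38.p6, 5′ to 3′ on the strand of the gene. Capitals mark AGGTCA or its reverse complement TGACCT.
Prdm16 (chr4:154636874-154637123, minus strand): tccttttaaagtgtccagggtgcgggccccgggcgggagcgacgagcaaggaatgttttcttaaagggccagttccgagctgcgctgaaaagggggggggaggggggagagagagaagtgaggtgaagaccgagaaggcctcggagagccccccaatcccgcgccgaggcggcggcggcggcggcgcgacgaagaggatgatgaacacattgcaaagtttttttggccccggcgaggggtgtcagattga
Fam131c (chr4:141367942-141368191, plus strand): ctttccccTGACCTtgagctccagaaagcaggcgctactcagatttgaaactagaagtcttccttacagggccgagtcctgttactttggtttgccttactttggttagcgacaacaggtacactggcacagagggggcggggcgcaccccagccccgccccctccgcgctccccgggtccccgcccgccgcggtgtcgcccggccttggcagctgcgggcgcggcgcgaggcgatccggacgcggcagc
Grrp1 (chr4:134254107-134254356, minus strand): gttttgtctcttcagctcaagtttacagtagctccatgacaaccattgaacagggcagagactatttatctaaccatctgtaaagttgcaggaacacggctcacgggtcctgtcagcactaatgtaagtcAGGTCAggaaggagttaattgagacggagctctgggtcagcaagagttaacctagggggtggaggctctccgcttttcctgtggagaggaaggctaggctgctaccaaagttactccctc
Dact2 (chr17:14203832-14204081, minus strand): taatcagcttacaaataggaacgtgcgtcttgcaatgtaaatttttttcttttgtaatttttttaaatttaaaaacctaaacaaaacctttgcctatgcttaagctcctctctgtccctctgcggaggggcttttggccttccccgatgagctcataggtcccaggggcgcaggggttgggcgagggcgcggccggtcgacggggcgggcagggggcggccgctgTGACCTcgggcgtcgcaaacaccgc
The motif was searched on both strands in windows of 300 bases. It was in 0 of the 33 promoters matched among the 44 higher genes that were stable without overlap, in 3 of the 17 matched among the 22 lower ones, and in 12.1% of the 10772 matched promoters of genes tested. Over all 27025 RefSeq promoters of this length the share was 16.0%. A direct repeat of AGGTCA with a spacer of 1, 4 or 5 bases was in 0 of these 33 and 17 promoters and in 0.0464% of those of genes tested. A match is a match of letters and no match says only that these letters are not in this window.

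The 12 higher and 12 lower protein-coding genes with the smallest p among stable genes without overlap are described next. All 24 have an exact permutation p of 0.0286 and an adjusted p of 0.9998 in edgeR with Benjamini-Hochberg adjustment. The permutation p follows from choosing genes without overlap. The adjusted p is also the smallest of any gene tested, so none of the 24 passed the adjustment.

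**Figure D2:**
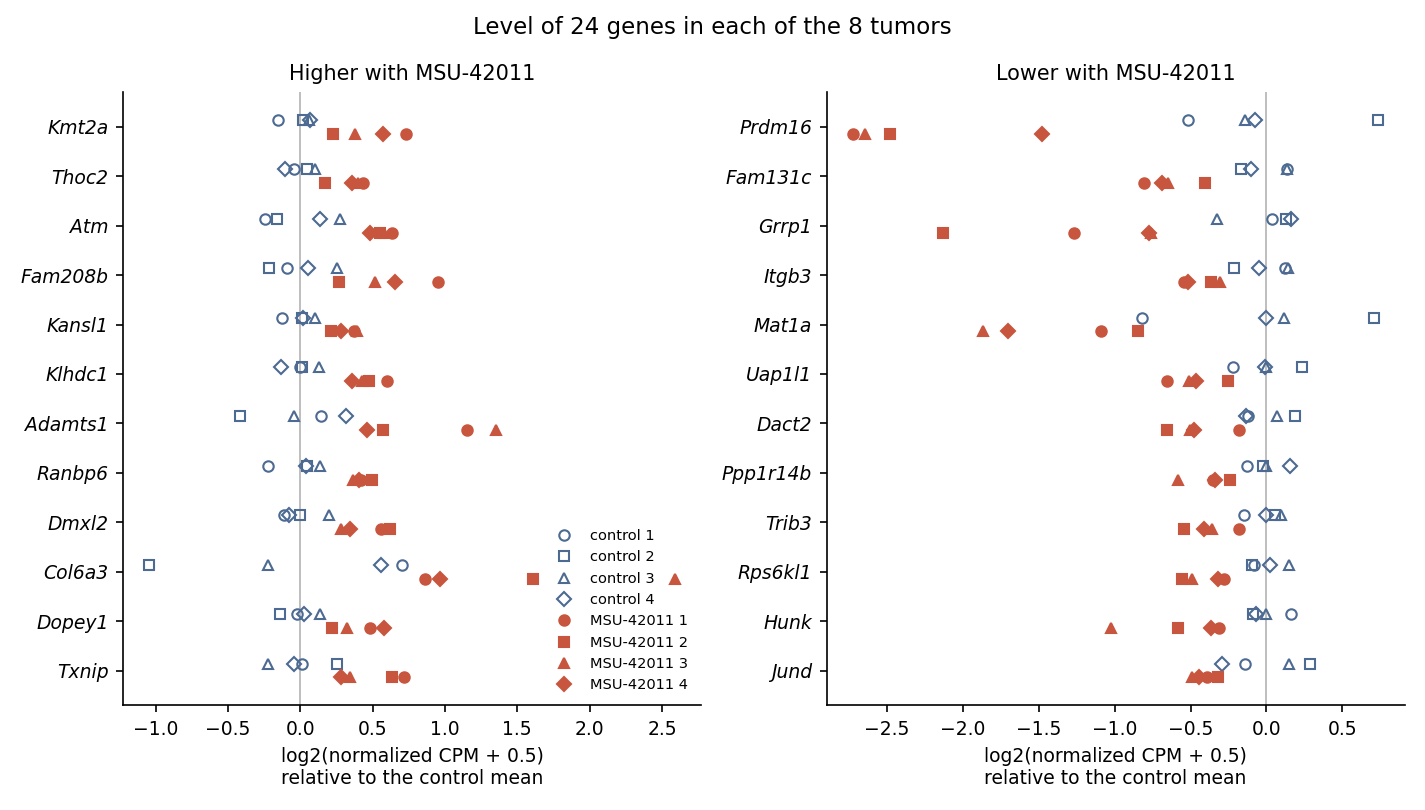
Level of the 12 higher (left) and 12 lower (right) genes in each tumor, as log2(normalized CPM + 0.5) relative to the control mean (horizontal axis, log scale), with control tumors as open blue and MSU-42011 tumors as filled red symbols. No MSU-42011 tumor reaches the range of the control tumors in any of the 24 genes, and Prdm16, Col6a3, Mat1a and Grrp1 lie farthest from the controls.

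Genes of chromatin, RNA and DNA repair led the higher genes by p. Kmt2a, a histone H3 lysine methyltransferase, was at 64.1, 72.4, 74.4 and 74.8 normalized CPM in control tumors 1 to 4 and at 119, 83.5, 92.97 and 106 in MSU-42011 tumors 1 to 4. All 4 control tumors lay close together and MSU-42011 2 was nearest to them, and the log2 fold change was 0.49 (SE 0.12), and ran from 0.40 to 0.57 without single tumors. Kansl1, a scaffold of a histone acetyltransferase complex, was at 62.3 to 72.9 in control and 78.96 to 89.3 in MSU-42011 tumors, a log2 fold change of 0.31 (SE 0.09). Thoc2, a subunit of the THO complex that links transcription to mRNA export, had a log2 fold change of 0.35 (SE 0.10), and Fam208b had 0.63 (SE 0.18). Fam208b overlaps Gdi2 on the other strand. Atm, the kinase that signals DNA double-strand breaks, was at 8.21, 8.74, 11.95 and 10.8 normalized CPM in control and 15.5, 14.6, 14.9 and 13.9 in MSU-42011 tumors 1 to 4. The 4 MSU-42011 tumors differed little from each other for Atm, and the log2 fold change was 0.57 (SE 0.16). Kmt2e, a relative of Kmt2a, was also stable without overlap at 0.40 (SE 0.13). It was chosen after its values were seen.

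The other higher genes act in traffic, matrix and metabolism. Txnip, which binds thioredoxin and restrains glucose uptake, was the most abundant of the 12, with 634, 752, 539 and 612 normalized CPM in control tumors 1 to 4 and 1036, 977, 799 and 767 in MSU-42011 tumors 1 to 4. MSU-42011 4 was only just above control 2, and the log2 fold change was 0.50 (SE 0.15). Adamts1, a secreted protease that cleaves proteoglycans of the matrix, was at 3.98, 2.55, 3.45 and 4.57 in control and 8.56, 5.56, 9.87 and 5.10 in MSU-42011 tumors 1 to 4. Its log2 fold change was 1.00 (SE 0.29), 1.995-fold, with MSU-42011 1 and 3 the highest. Ranbp6, of the importin family, Dmxl2, which works with the vacuolar proton pump, Dopey1, of Golgi traffic, and Klhdc1, a kelch protein of a ubiquitin ligase, had log2 fold changes of 0.43, 0.47, 0.41 and 0.48 with SE of 0.13, 0.14, 0.12 and 0.14. Their ranges in control tumors were 11.5 to 14.9, 12.7 to 15.9, 16.5 to 20.1 and 8.58 to 10.4 normalized CPM. Their ranges in MSU-42011 tumors were 17.5 to 19.2, 16.9 to 21.6, 21.4 to 27.5 and 12.3 to 14.6. Dopey1 overlaps Pgm3 on the other strand.

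Among the lower genes were several of kinase and Wnt signaling. Hunk, a kinase of the SNF1 family first described in mammary tumors with Neu, was at 32.9, 27.6, 29.4 and 28.02 normalized CPM in control tumors 1 to 4 and at 23.6, 19.5, 14.2 and 22.8 in MSU-42011 tumors 1 to 4. MSU-42011 3 was the lowest, and the log2 fold change was -0.56 (SE 0.16). Dact2, which binds Dishevelled and acts on Wnt and TGF-beta signals, was at 102 to 128 in control and 71.2 to 98.9 in MSU-42011 tumors, at -0.45 (SE 0.13). Trib3, a pseudokinase of the stress response that binds AKT, was at 87.96 to 104 in control and 67.00 to 86.05 in MSU-42011 tumors at a log2 fold change of -0.37 (SE 0.11), and its highest MSU-42011 tumor was only just below its lowest control tumor. Rps6kl1, of the ribosomal S6 kinase family, and Ppp1r14b, an inhibitor of protein phosphatase 1, were at -0.42 (SE 0.12) and -0.38 (SE 0.11). Jund, a subunit of the transcription factor AP-1, was at 233, 314, 285 and 209.7 in control and 195, 206, 183 and 189 in MSU-42011 tumors 1 to 4. The 4 MSU-42011 tumors lay within a narrow range below control 4, and the log2 fold change was -0.43 (SE 0.14).

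The remaining lower genes were Itgb3, Mat1a, Grrp1, Fam131c and Uap1l1. Itgb3, the integrin beta 3 chain, which pairs with alpha V to bind vitronectin and other matrix proteins, was at 150.3, 119, 153 and 133 normalized CPM in control tumors 1 to 4 and 94.6, 107, 112 and 96.5 in MSU-42011 tumors 1 to 4, a log2 fold change of -0.44 (SE 0.11). Mat1a, the methionine adenosyltransferase known from liver that makes S-adenosylmethionine, was scarce, at 1.43, 5.05, 3.19 and 2.89 in control and 1.10, 1.39, 0.431 and 0.544 in MSU-42011 tumors. Control 1 and MSU-42011 2 differed by less than 0.1 CPM for Mat1a, and the log2 fold change was -1.87 (SE 0.49). Grrp1 was at 20.5, 21.9, 15.8 and 22.4 in control and 8.01, 4.17, 11.6 and 11.5 in MSU-42011 tumors, 2.28-fold lower at -1.19 (SE 0.29). Fam131c was at 16.4 to 20.5 in control and 10.4 to 13.9 in MSU-42011 tumors, at -0.66 (SE 0.15), and Uap1l1 at -0.48 (SE 0.13). Both groups kept a gap in each of these genes.

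More stable genes were named after their values were seen, for their size or function. Zbtb16, a zinc finger transcription factor known from leukemia fusions with RARA, had 0, 0.803, 0.266 and 0 normalized CPM in control tumors 1 to 4 and 1.65, 0.967, 4.42 and 1.25 in MSU-42011 tumors 1 to 4. Controls 1 and 4 had 0 reads, and the log2 fold change of 2.90 (SE 0.97) therefore rests on few counts. Meis1, a homeobox partner of Hox proteins, was at 3.39, 0.567, 1.06 and 0.259 in control and 4.39, 4.17, 3.99 and 5.81 in MSU-42011 tumors, with control 1 near the MSU-42011 tumors and a log2 fold change of 1.82 (SE 0.64). Hoxb8, itself a Hox gene, was at 1.46 (SE 0.40) from at most 23 reads in any tumor. Lcor, a corepressor that binds nuclear receptors with ligand, was at 1.25, 2.03, 0.850 and 1.94 in control and 4.61, 2.05, 3.61 and 3.39 in MSU-42011 tumors, a log2 fold change of 1.16 (SE 0.37). Control 2 and MSU-42011 2 were nearly level for Lcor. Of 16 other nuclear receptor coregulators, listed without Lcor, 12 were higher with a median of 0.079 and a highest value of 0.30. None of those 16 had an unadjusted p under 0.05 in edgeR, and none was stable. Atp7a, a copper transporter, was at 0.95 (SE 0.29), and Ptn, the growth factor pleiotrophin, at 0.87 (SE 0.29) with MSU-42011 2 within the control range. Scrn1 had a log2 fold change of 2.06 (SE 0.70) although MSU-42011 2, at 1.33, was the lowest of all 8 tumors.

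On the lower side, Lrg1, a secreted glycoprotein of the acute phase response, was at 39.2, 219, 22.7 and 7.84 normalized CPM in control and 3.84, 14.4, 12.03 and 9.16 in MSU-42011 tumors 1 to 4. Control 2 was far above the other controls and control 4 lay within the MSU-42011 range, and the log2 fold change was -2.88 (SE 0.91) with all tumors and -1.23 without control 2. Clca3a2, of the calcium-activated chloride channel regulators, had the same pattern, with 77.3, 185, 29.9 and 10.6 in control and 13.5, 9.36, 11.1 and 18.2 in MSU-42011 tumors and a log2 fold change of -2.53 (SE 0.72). Lgals3, which encodes galectin-3 and is made by macrophages and epithelium, was at 17.00 to 81.7 in control and 18.9 to 23.8 in MSU-42011 tumors, with control 3 the lowest tumor. Its log2 fold change was -1.17 (SE 0.37), and that of Cd59a, which blocks the complement pore, was -0.90 (SE 0.32). Nfib, a transcription factor of mammary epithelium, was at 757, 673, 564 and 570.3 in control and 473, 470.4, 522 and 516 in MSU-42011 tumors. Its groups had a gap and its log2 fold change was -0.37 (SE 0.13). Gys1, the muscle form of glycogen synthase, was at -0.31 (SE 0.11).

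The direction of small differences went with transcript length, which bears on every list below. Over the 14779 genes, the Spearman correlation of transcript length with the log2 fold change was 0.250 and that of GC content was -0.236 over 14766 genes, as descriptions across genes that share the same 8 libraries. In 5 length classes of 2955 or 2956 genes the share of genes higher with MSU-42011 was 33.9% in the shortest and 66.2% in the longest, with median log2 fold changes of -0.068 and 0.072. Relative to the control mean, the correlation of length with the level was 0.260, -0.117, 0.309 and 0.134 in MSU-42011 tumors 1 to 4 and between -0.030 and 0.042 in the control tumors, whose own mean is the reference. Bexarotene tumors 1 to 4 had 0.270, -0.118, 0.190 and -0.193. The stable higher genes had a median length of 2462 bases and the stable lower genes 1426, against 1756 for all genes tested. When the trend of each tumor with length was removed, all 88 stable genes remained at an unadjusted p under 0.05 in edgeR with the same sign, and 83 did when the GC trend was removed too. Of all 393 genes at that threshold, 302 stayed without the length trend and 257 without both trends. Whether the trend came from the tumors or from the RNA and libraries was not tested.

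**Figure D3:**
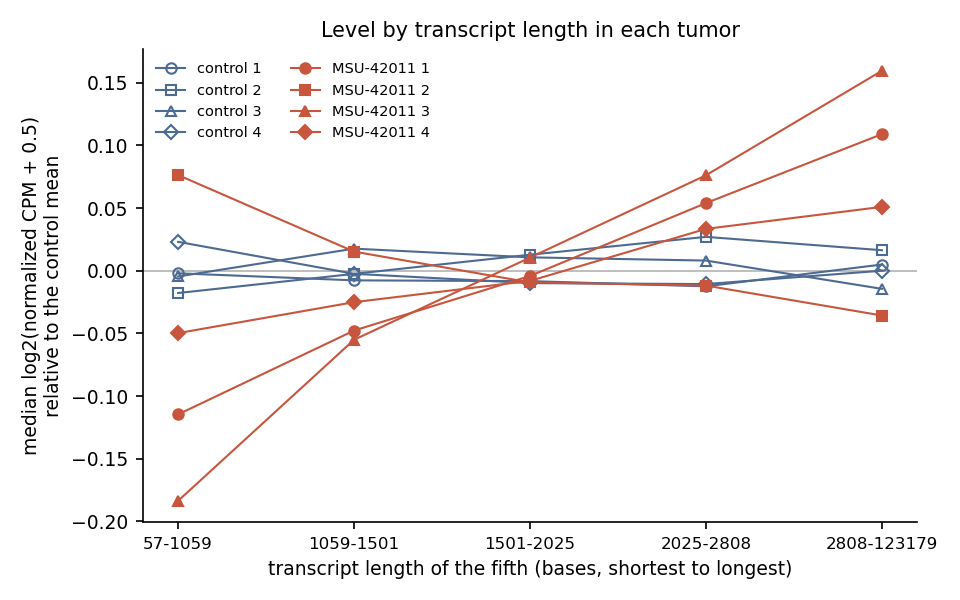
Median log2(normalized CPM + 0.5) relative to the control mean (vertical axis) in 5 classes of transcript length (horizontal axis, in bases, from short to long), with 1 line per tumor, control in blue and MSU-42011 in red. MSU-42011 tumors 1, 3 and 4 slope upward, to 0.109, 0.160 and 0.051 in the longest class, and MSU-42011 2 slopes downward, to -0.036.

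The receptors themselves were measured at similar means in both groups. By FPKM, which allows genes to be compared per length, Rxra was at 39.8 ± 7.21 (SD, n = 4) in control and 39.5 ± 12.99 in MSU-42011 tumors and Rxrb at 57.6 ± 10.4 and 58.8 ± 1.39, while Rxrg had 0 counts in 7 of 8 tumors. The exact two-sided permutation test on log2(FPKM + 0.5) gave p = 0.771 for Rxra and p = 0.857 for Rxrb, over 4 against 4 tumors. The vitamin D receptor Vdr, the LXR gene Nr1h2 and the RAR gene Rarg were the most abundant of the partners measured, at 123 ± 47.1, 107 ± 12.8 and 56.4 ± 12.4 FPKM in control tumors and 132 ± 66.1, 105 ± 5.15 and 59.8 ± 13.3 in MSU-42011 tumors. Pparg was at 0.739 ± 0.424 and 0.552 ± 0.149 FPKM and Ppara at 0.316 ± 0.0869 and 0.441 ± 0.161, against 40.0 ± 8.94 and 40.2 ± 4.59 for Ppard. Of 19 genes of RXR and its partners 14 were tested, 7 higher and 7 lower, and none had an unadjusted p under 0.05. The smallest p were those of Rara, Thra, Nr4a2 and Ppara, with log2 fold changes of -0.31, -0.21, 0.46 and 0.42. The sign of Thra changed without control 2 and that of Nr4a2 without MSU-42011 2.

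Target genes of the receptor pairs lay on both sides. Of 9 retinoic acid response genes tested, of 20 listed, 7 were lower, with a median log2 fold change of -0.27 (from -0.37 without control 3 to -0.17 without control 2). Aldh1a3, which makes retinoic acid, was at 5.35, 22.6, 1.01 and 2.46 normalized CPM in control and 3.13, 0.906, 1.62 and 1.004 in MSU-42011 tumors 1 to 4. Its log2 fold change of -2.24 (SE 0.87) had an unadjusted p under 0.05 but was -0.82 without control 2, and MSU-42011 and control tumors overlapped. Dhrs3, a retinal reductase, was at -0.36 (SE 0.21), Tgm2, a transglutaminase, at -0.37 (SE 0.18), and Cyp26b1, which degrades retinoic acid, at 1.27 (SE 0.99). Of 15 LXR targets 10 were higher, with a median of 0.024 (from -0.03 without MSU-42011 3 to 0.23 without control 2) and none at an unadjusted p under 0.05. Lpcat3, which remodels phospholipids, was at 0.19 (SE 0.10) and Apoc1, a lipoprotein component, was at 32.7, 239.6, 55.9 and 431 in control and 250.4, 589, 212 and 502 in MSU-42011 tumors. Of 20 PPAR targets 8 were higher, with a median of -0.071. All 5 targets of the vitamin D receptor, PXR and CAR tested, of 15 listed, were higher, with a median of 0.19 (from 0.11 without MSU-42011 3 to 0.69 without control 3) and none at an unadjusted p under 0.05. Their median by tumor was from -0.10 to 0.29 in control tumors and from -0.25 to 0.59 in MSU-42011 tumors, so the groups overlapped. The medians of LXR and PPAR targets over the 4 MSU-42011 tumors ranged from -0.29 to 0.60 and from -0.16 to 0.13, within or close to the control tumors' own ranges of -0.64 to 0.56 and -0.21 to 0.36.

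Fatty acid synthesis genes held 1 stable member among the 25 tested, beside 0.365% of all genes that were stable and higher. Acaca, acetyl-CoA carboxylase, the rate-limiting enzyme of fatty acid synthesis, was at 79.8, 88.6, 90.00 and 84.05 normalized CPM in control and 101, 94.4, 112 and 109 in MSU-42011 tumors 1 to 4. All 4 MSU-42011 tumors were above the controls, and the log2 fold change was 0.28 (SE 0.093). Fasn, fatty acid synthase, was at 333 to 548 in control and 433 to 606 in MSU-42011 tumors, and Acsl3, an acyl-CoA synthetase, at 0.42 (SE 0.17) with an unadjusted p under 0.05. The list had 15 of 25 genes higher and a median of 0.043.

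**Figure D4:**
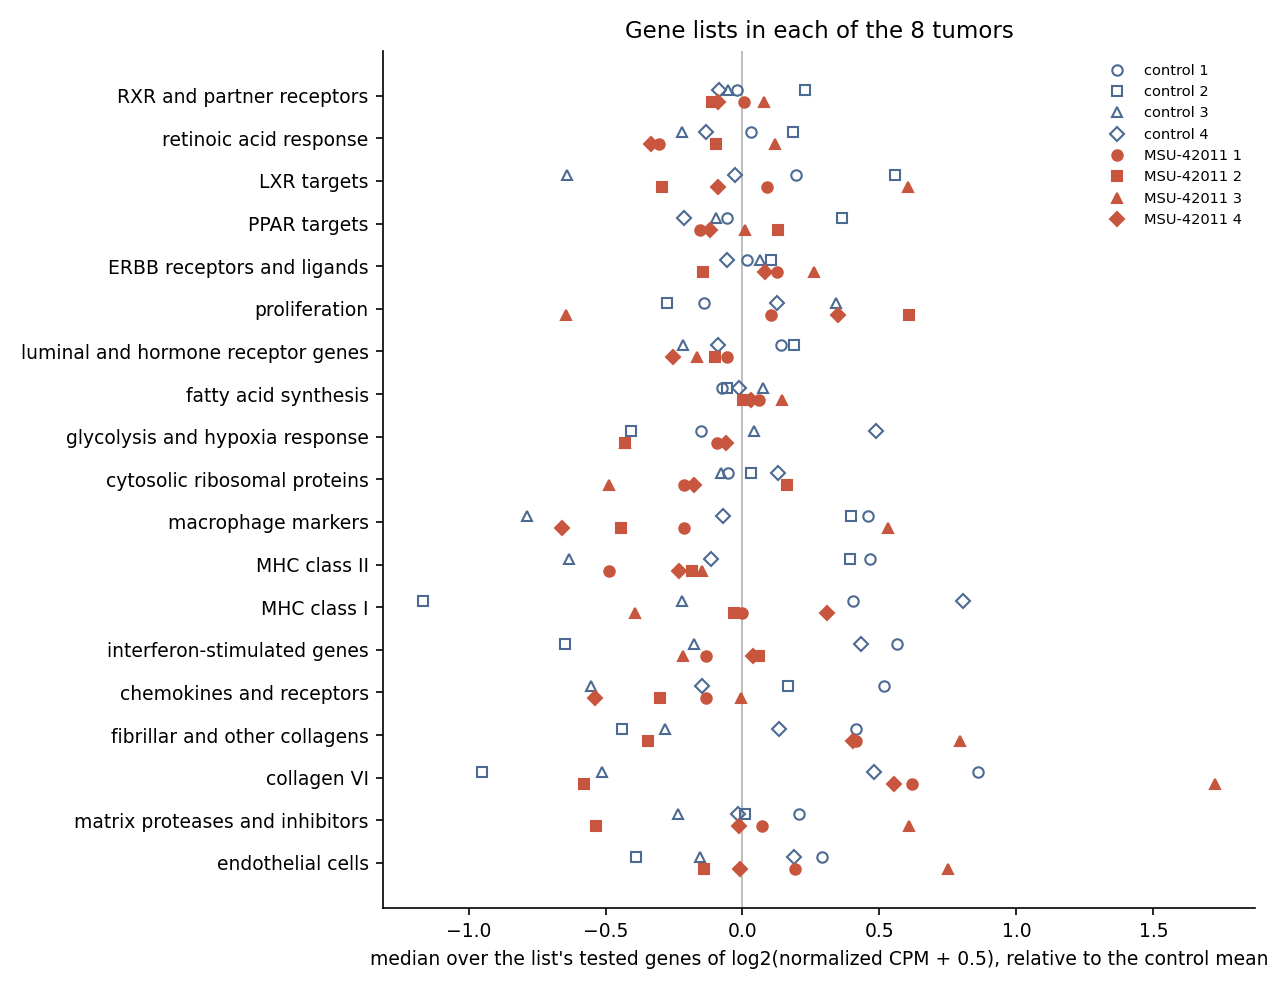
Median over the tested genes of each of 19 lists of log2(normalized CPM + 0.5) relative to the control mean (horizontal axis, log scale) in each tumor, control open blue and MSU-42011 filled red. The groups overlap in most lists, MSU-42011 3 is lowest for proliferation at -0.64 and highest for collagen VI at 1.73, and control 2 is lowest for MHC class I at -1.17.

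Erbb2 and tumor cell genes came next. The labels do not say how reads of the rat transgene were counted, and the mouse gene Erbb2 was at 133, 143, 123 and 123 normalized CPM in control and 124, 107, 172 and 93.6 in MSU-42011 tumors 1 to 4, with overlap of the groups. The related receptors Egfr and Erbb4 had log2 fold changes of 0.19 (SE 0.13) and 0.20 (SE 0.13). The ligand Nrg1 was at 1.21, 9.18, 0.539 and 1.17 in MSU-42011 tumors 1 to 4 and 0.776 to 1.12 in control tumors, so that its log2 fold change of 1.61 came from MSU-42011 2 and was -0.0066 without it. Of 32 proliferation genes 28 were higher, with a median of 0.12 and none at an unadjusted p under 0.05. The median of that list was 0.61 in MSU-42011 2 and -0.64 in MSU-42011 3, while the control tumors ran from -0.28 to 0.34, and the list's median log2 fold change ran from -0.055 without MSU-42011 2 to 0.34 without MSU-42011 3. Bub1, a spindle checkpoint kinase, had the smallest p, at 0.55 (SE 0.30). Of 19 luminal and hormone receptor genes 16 were lower, with a median of -0.19 (from -0.24 without MSU-42011 3 to -0.11 without control 2). The keratins Krt18 and Krt8 of luminal cells were at -0.35 (SE 0.16) and -0.28 (SE 0.13), and for Krt8 the ranges 884 to 1141 in control and 741 to 939.9 in MSU-42011 tumors overlapped. Tfap2c, a luminal transcription factor, was at -0.28 (SE 0.14). The milk protein list had 12 of 16 genes lower, and its lowest member was Spp1, which is given with the macrophage markers below. Wap, whey acidic protein, was at 23.7, 41.9, 2.71 and 4.53 in control and 3.29, 6.77, 4.21 and 12.2 in MSU-42011 tumors, with controls 1 and 2 the highest.

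Genes of glycolysis and of cytosolic ribosomes lay mostly lower as lists. In turn, 2 of 30 and 1 of 79 members were lower at an unadjusted p under 0.05 in edgeR, beside 1.17% of all genes tested. Of 30 genes of glycolysis and the hypoxia response 29 were lower, with a median of -0.30 (from -0.41 without control 2 to -0.14 without control 4) beside -0.00063 over all genes. This list's median by tumor was from -0.41 to 0.49 in control tumors and from -0.43 to -0.059 in MSU-42011 tumors, so the groups overlapped. Pkm, pyruvate kinase, was at 1816, 1720.1, 1796 and 2046 normalized CPM in control and 1457, 1345, 1494 and 1615 in MSU-42011 tumors 1 to 4, with no overlap and a log2 fold change of -0.32 (SE 0.12). Ndrg1, a hypoxia-induced gene, was at -1.15 (SE 0.41), and both had an unadjusted p under 0.05. Ldha and Pgk1 were at -0.54 (SE 0.27) and -0.45 (SE 0.23). With the length trend removed the list's median was -0.27, and 27 of the 30 genes were lower. Of 79 cytosolic ribosomal protein genes, which are short, 78 were lower, with a median of -0.16 (from -0.27 without MSU-42011 2 to -0.061 without MSU-42011 3). Their median by tumor was from -0.079 to 0.13 in control tumors and from -0.49 to 0.16 in MSU-42011 tumors, so MSU-42011 2 was above all controls. With the length trend removed the median was -0.10 and 74 of 79 were lower. Fau, a ribosomal protein gene, was the only member with an unadjusted p under 0.05, at -0.33 (SE 0.15). Mitochondrially encoded subunits had 9 of 12 genes lower with none at an unadjusted p under 0.05, and mt-Co2 and mt-Nd3 changed sign without control 1.

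The study followed Col6a3, Map9, Il18 and H2-Aa by qPCR and reports that each was increased with MSU-42011. That qPCR covered more mice per group than the counts here, was scaled to GAPDH and used a t test in a single direction. The study also reports more Col6a3 and IL-18 protein by immunohistochemistry. The counts are of RNA alone and were tested in both directions. In the counts these 4 genes behaved differently from each other, and H2-Aa was lower.

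**Figure D5:**
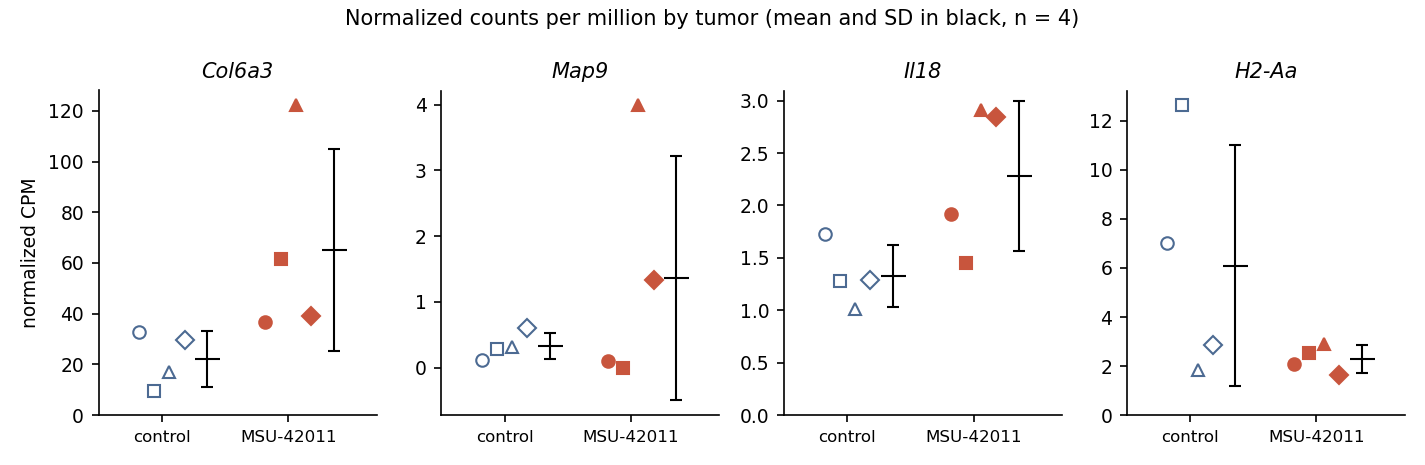
Normalized CPM (vertical axis, linear, own scale for each gene) of Col6a3, Map9, Il18 and H2-Aa in the 4 control (open blue) and 4 MSU-42011 (filled red) tumors, with the mean and SD in black. For Col6a3 all 4 MSU-42011 tumors lie above the controls, and for Map9, Il18 and H2-Aa the groups overlap.

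Col6a3 (chromosome 1, 90765923 to 90843971, minus strand) encodes the alpha 3 chain of collagen VI. It was at 32.8, 9.40, 17.00 and 29.5 normalized CPM in control tumors 1 to 4 and 36.7, 61.7, 122 and 39.3 in MSU-42011 tumors 1 to 4, or 22.2 ± 10.9 and 64.99 ± 39.9 (SD, n = 4). MSU-42011 3 was far the highest, and MSU-42011 1 and control 1 were close. The log2 fold change was 1.55 (SE 0.47), 2.93-fold, and 1.05 without MSU-42011 3. In the bexarotene tumors, on the scale of all 12 tumors, it was at 195.5, 23.99, 25.8 and 88.9 normalized CPM. Map9, a microtubule-associated protein of the spindle, was too scarce for the low-count filter. Its counts were 2, 6, 6 and 14 in control tumors 1 to 4 and 2, 0, 74 and 32 in MSU-42011 tumors 1 to 4. MSU-42011 3 and 4 were above all controls and MSU-42011 1 and 2 were not, and without the filter edgeR gave a log2 fold change of 1.999 (SE 0.98). Il18, an inflammatory cytokine of the IL-1 family, was at 1.72, 1.28, 1.01 and 1.29 in control and 1.92, 1.45, 2.91 and 2.84 in MSU-42011 tumors 1 to 4. MSU-42011 2 lay within the control range, and the log2 fold change was 0.79 (SE 0.33) with an unadjusted p of 0.0390 in edgeR and an exact permutation p of 0.0571. Il18 overlaps Bco2 on the other strand. H2-Aa, an alpha chain of MHC class II, which presents antigen to CD4+ T cells, was at 7.02, 12.7, 1.86 and 2.84 in control and 2.09, 2.54, 2.91 and 1.63 in MSU-42011 tumors. Controls 1 and 2 were high and controls 3 and 4 lay among or near the MSU-42011 tumors, and the log2 fold change was -1.41 (SE 0.55), or -0.77 without control 2, with an exact permutation p of 0.20.

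Other collagen and vessel genes followed single tumors. Of 23 collagen genes 18 were higher, with a median of 0.38 (from 0.075 without MSU-42011 3 to 0.56 without control 1) and none at an unadjusted p under 0.05. Collagen genes are long, and with the length trend removed the median was 0.30. Col13a1, a transmembrane collagen, was at 1.37 to 1.54 normalized CPM in control and 1.57 to 2.64 in MSU-42011 tumors with no overlap, at 0.60 (SE 0.27). The partner chains Col6a1 and Col6a2 were at 0.57 (SE 0.51) and 0.62 (SE 0.51), and 0.086 and 0.078 without MSU-42011 3. Col6a1 was at 45.1, 10.9, 14.9 and 28.7 in control and 33.3, 14.2, 68.3 and 31.5 in MSU-42011 tumors 1 to 4, so only MSU-42011 3 stood above control 1. Of 19 endothelial genes 17 were higher with a median of 0.17, and Pecam1, an adhesion molecule of vessels, was at 45.9, 18.5, 27.3 and 41.98 in control and 38.9, 21.7, 61.9 and 27.6 in MSU-42011 tumors. MSU-42011 3 was again the highest tumor and none of these genes had an unadjusted p under 0.05. The fibroblast markers summed to 446 to 1120.4 in control tumors and 379.6 to 1487 in MSU-42011 tumors and the pericyte and smooth muscle markers to 261 to 419 in control tumors and 219 to 589 in MSU-42011 tumors. Their part in the collagen values was not tested.

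Proteases and integrins had members on both sides. Of 24 matrix proteases and inhibitors tested 16 were higher, with a median of 0.17 (from -4.4e-05 without MSU-42011 3 to 0.31 without MSU-42011 2). At an unadjusted p under 0.05 in edgeR 2 of the 24 were higher and 2 lower, beside 1.49% and 1.17% of all genes tested. Itga1, the integrin alpha 1 chain that binds collagen, was at 16.2, 12.99, 16.9 and 19.4 normalized CPM in control and 22.4, 19.6, 29.9 and 22.9 in MSU-42011 tumors 1 to 4, with control 4 and MSU-42011 2 nearly level and a log2 fold change of 0.53 (SE 0.17). It overlaps Pelo on the same strand. Of 30 integrin and laminin genes 14 were higher, with a median of -0.0023, which was 0.077 with total counts alone. Mmp13, a collagenase, was at 1.90, 1.09, 0.850 and 1.25 in control and 0.329, 0.423, 0.809 and 0.627 in MSU-42011 tumors, stable without overlap at -1.20 (SE 0.41) but from few reads. Mmp12, the macrophage elastase, was at -1.44 (SE 0.56) and -0.70 without control 2, and Adamts8 at 1.04 (SE 0.40).

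Immune genes were mostly lower, with wide spread among the control tumors. Of 20 macrophage markers 16 were lower, with a median of -0.14 (from -0.50 without MSU-42011 3 to 0.053 without control 1), and their summed level was 1841 to 3992 in control tumors and 2074 to 4053 in MSU-42011 tumors normalized CPM. The defining marker Csf1r was at 68.8, 63.4, 27.6 and 46.7 in control and 42.03, 39.4, 67.8 and 24.6 in MSU-42011 tumors 1 to 4, and Adgre1 at 8.98, 8.08, 5.05 and 6.64 and 9.55, 6.04, 19.2 and 4.89. Both overlapped between the groups. Gpnmb, a glycoprotein of lipid-laden macrophages, was at 0.357, 27.8, 0.584 and 2.63 in control and 0.165, 0.544, 0.431 and 0.544 in MSU-42011 tumors. Control 2 set most of its log2 fold change of -4.20 (SE 1.32), which was -1.51 without that tumor. Spp1, osteopontin, was at 165, 389.9, 9.62 and 16.6 in control and 4.44, 8.16, 44.4 and 9.20 in MSU-42011 tumors, at -3.13 (SE 1.16), and the scavenger receptor Msr1 at -0.94 (SE 0.39). Spp1 was also the lowest member of the milk protein list, so it is no marker of macrophages alone. Gpnmb, Spp1 and Msr1, 3 of the 20, had an unadjusted p under 0.05 in edgeR, and none of the 3 was stable. Of all genes tested 1.17% were lower at that threshold. All 9 MHC class II genes tested were lower, with a median of -0.31 (from -0.52 without control 4 to -0.13 without control 2), and 8 of 9 were with the length trend removed. Cd74, the invariant chain, was at 129, 295, 26.2 and 61.4 in control and 42.5, 77.9, 56.2 and 44.2 in MSU-42011 tumors, with control 3 below every MSU-42011 tumor.

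Of 19 MHC class I genes 16 were lower with a median of -0.25 (from -0.40 without control 2 to 0.074 without control 4), and of 32 interferon-stimulated genes 27 were lower with a median of -0.18 (from -0.37 without control 2 to 0.013 without control 1). None of these genes had an unadjusted p under 0.05, and both medians turned positive without 1 control tumor. The chemokine list had 16 of 22 genes lower. Ccl8, which attracts monocytes, was at 3.51, 0.520, 1.28 and 0.603 normalized CPM in control and 0.0549, 0.725, 0.377 and 0.0837 in MSU-42011 tumors, at -2.26 (SE 0.85), and Ccl3 at -0.97 (SE 0.45). Il1b, the inflammatory cytokine IL-1 beta, was at 1.07, 4.06, 0.0531 and 0.560 in control and 0.329, 0.846, 0.539 and 0.418 in MSU-42011 tumors, with control 2 alone above 2 CPM and a log2 fold change of -1.44 that was -0.071 without it. The complement list had 16 of 28 genes lower, and Cfd, the protease complement factor D that fat cells also secrete, was at 0.654, 0.0472, 5.95 and 3.28 in control and 0, 1.09, 0.108 and 0 in MSU-42011 tumors. T and NK cell markers summed to 11.8 to 27.2 in control tumors and 15.9 to 28.9 in MSU-42011 tumors normalized CPM and B and plasma cell markers to 1456 to 2137 in control tumors and 1242 to 1854 in MSU-42011 tumors, and red blood cell markers to 224 to 573 in control tumors and 65.5 to 374 in MSU-42011 tumors. The fat markers Adipoq and Plin1 had at most 12 reads in any tumor.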

How the data were processed

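The authors deposited raw read counts of 54532 genes per tumor and the same data as FPKM, normalized by the authors for length and total counts. The submitters' processing notes name STAR 2.6.1d, featureCounts 1.5.0-p3 and DESeq2. The strand setting and genome build are not given in the sources used here, and 98.3% of gene coordinates matched GENCODE M21 on GRCm38. The deposited count table was tested with edgeR 4.0.16 in R 4.3.3: TMM, filterByExpr, a quasi-likelihood F test of 4 MSU-42011 against 4 control tumors without covariates, and Benjamini-Hochberg adjustment at 0.05. Depth was 16583413 to 24223315 counts per tumor, and counting floors cover counting error only. Alternatives were DESeq2 1.42.0, limma 3.58.1 on voom or log2 FPKM, other scalings, filters and models, and leaving out each tumor. Fits with the trends in transcript length (implied by the deposited FPKM) and GC removed were added after seeing the data. No column was left unassigned.

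Members and gene lists (59, with 1296 genes found in the table) were chosen with earlier results of these data known. Genes were named by a rule: up to 12 higher and 12 lower protein-coding genes with the smallest p that were stable without overlap at a mean of 1 CPM or more, the 4 genes the study measured by qPCR, any gene with an adjusted p under 0.05, and in lists under discussion up to 4 members with the smallest p and the receptors, ligands and Erbb2. Marker genes given as levels, and genes marked so, were chosen outside it. A list was described by counts and medians with no test. The bexarotene comparison, qPCR and histology were not analysed here.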

Additional observations from a re-analysis of the deposited data

Results flagged for a closer look

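In 21 of 256 groups of 4 tumors tested, a tumor of a named gene stood apart from the other 3 of its group by Dixon's test. Chance flags about 1 in 20 groups of independent, normally distributed values. These were untransformed values of chosen genes in the same tumors, so the 21 cannot be set against that rate. Every flagged value was the highest of its group. All values are normalized CPM.

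In control 2, Tgm2 was at 146 against 90.9 to 94.2 in the other controls, Gpnmb at 27.8 against 0.357 to 2.63, Masp1 at 11.1 against 0.691 to 1.37, Mmp12 at 10.9 against 2.39 to 3.71, Acsl3 at 33.8 against 23.5 to 24.1, and Lrg1 at 219 against 7.84 to 39.2. In control 1, the muscle genes Mylpf, Tnni2 and Ckm were at 15.0, 8.92 and 4.76 against at most 1.28, 0.803 and 0.992 in the other controls, and Cyp26b1 was at 5.65 against 0.584 to 1.42. In control 3, Rps4x was at 2679.9 against 1414 to 1494.

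Among MSU-42011 tumors, number 4 had Prdm16 at 1.46 against 0.329 to 0.483 in the others. MSU-42011 3 had Pltp at 7.55 against 2.68 to 3.40, Spp1 at 44.4 against 4.44 to 9.20, Msr1 at 5.23 against 2.52 to 2.97, Sox18 at 22.5 against 12.6 to 13.1, and Tie1 at 30.2 against 12.99 to 15.6. MSU-42011 2 had Dhrs3 at 135.9 against 71.1 to 79.4, Acot1 at 73.0 against 35.1 to 36.5, Nrg1 at 9.18 against 0.539 to 1.21, and Cfd at 1.09 against 0 to 0.108.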

How the results depend on the processing

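The number of genes at an adjusted p under 0.05 was 0 in every edgeR and limma fit run, with the smallest and largest value 0 over the 8 fits that left out 1 tumor, and 1 with DESeq2 on the 8 tumors or on all 12 and 7 with DESeq2 without its filter on Cook's distance, where Prdm16 was joined by Bpifa2 and skeletal muscle genes that were high in control 1. At an unadjusted p under 0.05 the higher and lower genes numbered 405 and 86 with total counts only, 515 and 330 with no filter on low counts, 363 and 266 with DESeq2 and 369 and 284 without its Cook's distance filter, 349 and 92 with limma on log2(FPKM + 1), 352 and 98 on log2(FPKM + 0.1), and 305 and 76 with an FPKM of at least 1 in 4 tumors. Leaving out 1 tumor gave 108 to 522 higher and 86 to 506 lower genes. Genes without overlap were 298 higher and 35 lower with total counts only and with FPKM, which apply the same scaling, and 305 higher with no filter on low counts, which tests more genes. Removing the length trend, chosen after seeing the data, gave 190 higher and 165 lower genes, and removing length and GC trends 183 and 148.

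The labels number the tumors 1 to 4 in both groups, and deviations of same-numbered tumors correlated at 0.062, -0.039, -0.371 and 0.095, so the numbers were not read as pairs. With the replicate block 0 genes were called, and at the unadjusted threshold 171 genes were higher and 135 lower. Log2 fold changes that reversed did so without 1 tumor, and over the 8 fits without a tumor they ran from -0.30 to 0.021 for Thra, from -0.82 to 0.082 for Acot1 and from -1.47 to 0.19 for Il18r1 (each reversed without control 2), from -0.94 to 0.049 for mt-Co2, from -0.66 to 0.021 for mt-Nd3 and from -2.70 to 0.093 for Tnni2 (without control 1), and from -0.0063 to 0.74 for Nr4a2 and from -0.0066 to 1.96 for Nrg1 (without MSU-42011 2). Except where stated the cause was not tested. Depth limits scarce genes such as Map9, Hoxb8 and Mmp13.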

Other observations

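Further lists are given here by counts and medians. Of 7 white adipocyte markers tested, of 15 listed, all were lower, with a median log2 fold change of -0.17 (from -0.24 without MSU-42011 2 to -0.12 without control 1) and Cfd alone at an unadjusted p under 0.05. Their median by tumor was from -0.10 to 0.062 in control tumors and from -0.36 to 0.054 in MSU-42011 tumors, with overlap of the groups. The defining fat markers Adipoq, Plin1 and Lep had 0 reads in 5, 4 and 7 of the 8 tumors and at most 12 reads in any. This list is therefore not read as an amount of fat tissue. Of 24 cholesterol synthesis genes 13 were higher with a median log2 fold change of 0.027, and of 18 clock genes 9 were, with a median of 0.031. NRF2 antioxidant targets had 16 of 24 genes lower at a median of -0.068, and lysosome genes 16 of 24 at -0.06. Of 64 nuclear subunits of oxidative phosphorylation 49 were lower at a median of -0.062, and with the length trend removed 32 of 64 were. EMT regulators had 8 of 10 genes higher at a median of 0.41, which ran from 0.13 without MSU-42011 3 to 0.58 without control 1. Genes of the unfolded protein and heat shock responses had 13 of 23 higher at 0.023, and D-type cyclins, their kinases and inhibitors 10 of 16 at 0.046. BCL2 family genes had 11 of 15 lower at -0.10.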
